A study of Mus musculus with 6 samples.

Results

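The genes described here are 10 genes of iron uptake, storage, export and sensing, measured in the duodenum of mice with and without the vitamin D receptor. They were listed by symbol (Slc11a2, Cybrd1, Slc40a1, Heph, Tfrc, Fth1, Hmox1, Epas1, Ireb2 and Aco1), and each had exactly 1 probe set that the platform annotation pairs with that symbol alone. They are 10 of 13174 named genes bright enough to be tested and of 22180 with such a probe set. Whole-transcript arrays were hybridised with duodenal RNA from 3 wild-type mice and 3 VDR-null mice, all 10 weeks old and of the C57Bl/6 background. The labels do not state the null allele, the sex, the diet or whether the muscle wall was removed. Each genotype has 3 numbered arrays, which the design text ties to 3 mice, so p-values measure the spread between these animals. All signals below are log2 values, so that 1 unit is a doubling. A level is compared only between arrays for the same gene, since probe sets of different genes bind with different strength.

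Dietary iron is taken up almost entirely in the duodenum. Ferric iron is reduced at the brush border by Cybrd1 (duodenal cytochrome b), carried into the enterocyte by Slc11a2 (DMT1), stored in ferritin or exported across the basolateral membrane by Slc40a1 (ferroportin), and oxidised on exit by Heph (hephaestin) so that transferrin can bind it. Enterocytes sense their own iron through the iron regulatory proteins encoded by Aco1 and Ireb2, which bind RNA hairpins of several of these transcripts, and through the hypoxia-inducible factor 2α encoded by Epas1, which raises transcription of uptake and export genes when iron or oxygen is low. Vitamin D is best known in this tissue for raising the transport of calcium.

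The arrays differed in the levels of marker genes of several cell types. What part this has in the values below was not tested beyond fits with covariates. Wild-type replicate 1 stood apart in villus transcripts: the lactase gene Lct, a defining enzyme of the proximal small intestine, read 5.74 there and between 9.49 and 11.69 on the other arrays. A list of 26 enterocyte genes, acting at the brush border or elsewhere in the cell, is called the brush border list below. Its mean level was 9.03 to 10.34 in wild-type and 10.11 to 11.04 in VDR-null duodenum. Relative to its 6-array mean this list was at -1.18 in wild-type mouse 1, at 0.83 in VDR-null mouse 1 and between -0.11 and 0.33 in the other 4. In whole tissue, fewer cells of a type and less RNA per cell cannot be told apart. VDR-null replicate 3 carried the most pancreatic transcripts, with the 4 tested acinar enzyme genes on average 2.87 above their 6-array mean. VDR-null replicate 1 lay at 0.45, and the other arrays between -1.13 and -0.61. In Ctrb1, Try4 and Cpa1, but not in Cela1, all VDR-null arrays lay above all wild-type arrays. Of all genes tested 11.1% were without overlap in either direction. Another 6 listed acinar genes with a probe set were too dim to be tested. All 14 smooth muscle genes were lower in VDR-null duodenum (median -0.37, 0 past the adjusted threshold). Of them 8 had an unadjusted p under 0.05 in limma, against 5.23% of all genes tested. Their mean level was 9.38 to 9.87 in wild-type against 9.31 to 9.33 in VDR-null arrays, without overlap. A fit with this mean as covariate therefore cannot cleanly separate it from genotype. The duodenal factor Pdx1 was bright on all arrays (7.70 to 8.28). Of 9 listed genes of distal intestine with a probe set, 5 were too dim to be tested. Among these the ileal genes Fabp6 and Slc10a2 were dim on all 6 arrays. The 4 tested ones, Clec2h, Ckmt1, Car4 and Slc37a2, were all higher in VDR-null duodenum (median 0.53, 0 past the adjusted threshold). So were 11 of 12 listed genes of duodenal identity (median 0.21, 0 past the adjusted threshold). The mean deviation of the 4 was lowest in wild-type mouse 1 (-1.02) and highest in VDR-null mouse 1 (0.73), as in the brush border list. Erythroid genes could not be used as a check on blood, because only 3 of 12 listed genes had a probe set of their own and none was bright enough to be tested. The probe set of Vdr read 10.72 to 11.11 in wild-type and 10.85 to 10.99 in VDR-null arrays (difference -0.03 ± 0.12, SE), and since the position of its probes relative to the deleted part is not known, it does not check the labels.

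Most of the iron genes had higher means in VDR-null duodenum, and the genes of export and apical import, Heph, Slc40a1 and Slc11a2, had the largest differences, but no difference among the 10 passed the test against the spread between mice. The basolateral ferroxidase Heph was 1.81-fold higher, ferroportin (Slc40a1) 1.43-fold and the iron importer Slc11a2 1.40-fold, while Cybrd1 and Fth1 lay within 1.04-fold of wild-type and the transferrin receptor Tfrc was lower by 0.22 on the log2 scale. Of the 10 genes 8 were higher, where 44.0% of all genes tested were, with a median difference of 0.19 against -0.03 over all genes tested. Only Heph was at least 1.5-fold higher, which 2.61% of all tested genes were. In limma's test 0 of the 10 genes had an adjusted p under 0.05, as did 0 of 13174 genes (0.0%), and 0 of the 10 had an unadjusted p under 0.05, which 689 of all genes (5.23%) had. With array weights 3 of the 10 did (Slc11a2, Heph and Hmox1, lowest adjusted p in limma 0.206), as did 2718 of all 13174 genes. Without wild-type replicate 2 it was 2 of the 10 (Slc11a2 and Heph) and 1245 of all genes. Without VDR-null replicate 3 it was 1 of the 10 (Heph) and 1569 of all genes. Wild-type and VDR-null values were fully separated in 1 of the 10 genes, Aco1, and in 11.1% of all genes tested. The adjusted p of the 10 genes lay between 0.683 and 0.968. Leaving out wild-type replicate 1, alone or together with VDR-null replicate 1, left 6 of 10 higher. A fit with the mean of the brush border list as covariate left 5 of 10 higher and a median of 0.04. All 26 genes of that list were themselves higher in VDR-null duodenum, so this fit cannot cleanly separate their mean from genotype.

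**Figure D1:**
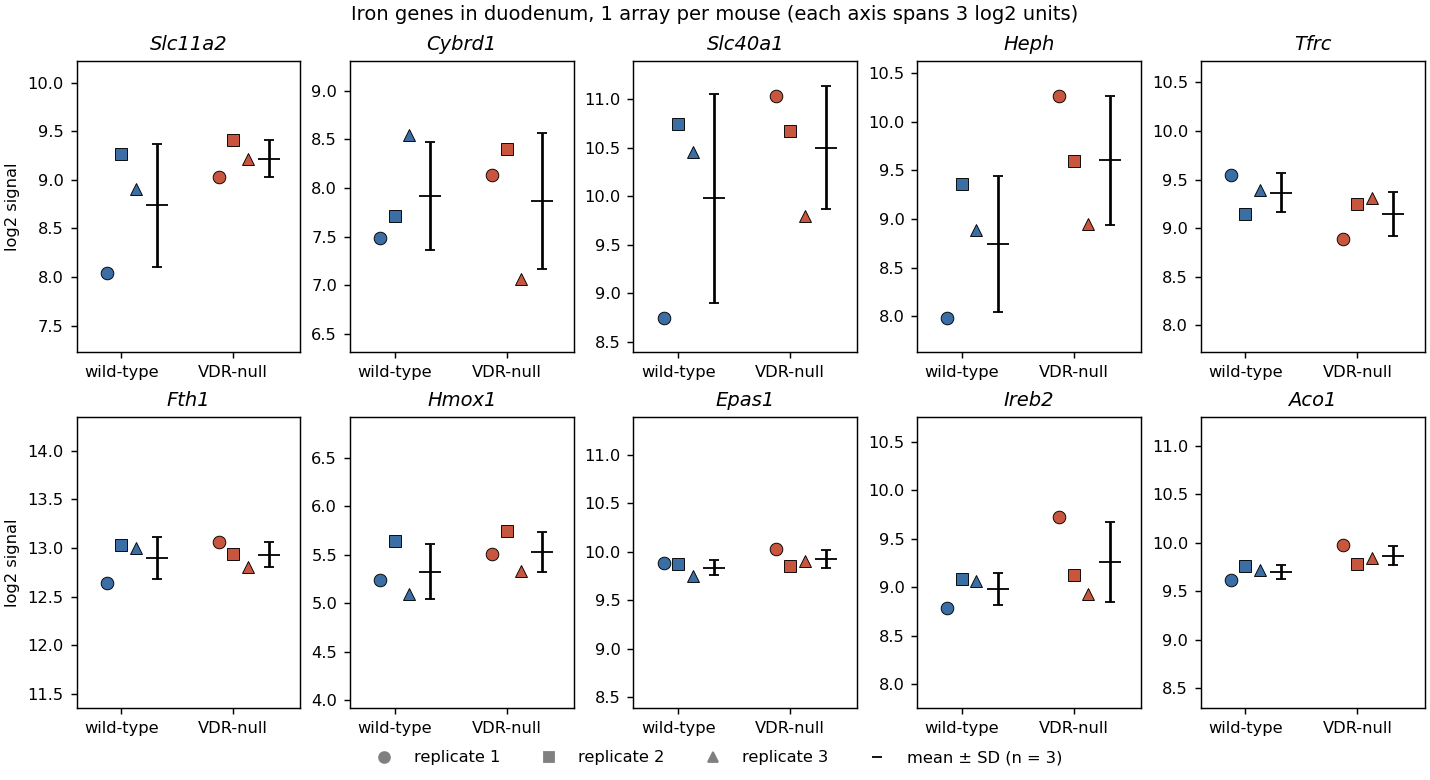
Log2 signal of the 10 iron genes on each of the 6 arrays; symbols mark the replicate number, and the bars give the mean and SD of 3 mice per genotype on axes that all span 3 log2 units. Slc40a1, Heph, Slc11a2 and Cybrd1 spread over more than 1 log2 unit among the mice, while Epas1 and Aco1 stay within 0.29 and 0.36.

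The gene that carries ferrous iron into the enterocyte, Slc11a2, had signals of 8.04, 9.27 and 8.91 in wild-type mice (replicates 1 to 3, the order kept throughout) against 9.03, 9.41 and 9.22 in null mice. Its low value was wild-type replicate 1 alone, and the other 5 mice lay between 8.91 and 9.41 with the genotypes interleaved. The means were 8.74 ± 0.63 (SD, n = 3) and 9.22 ± 0.19 (SD, n = 3), a log2 difference of 0.48 ± 0.30 (SE), with a 95% interval from -0.23 to 1.19 and an adjusted p of 0.683 in limma. Without wild-type replicate 1 the difference was 0.13, and without wild-type replicate 2 it was 0.75. The smooth muscle mean as a covariate, itself separated by genotype, turned it to -0.06 ± 0.41 (SE).

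Cybrd1, the ferric reductase that prepares iron for Slc11a2, went its own way among the mice. It had signals of 7.49, 7.71 and 8.55 in wild-type mice against 8.13, 8.40 and 7.07 in null mice. The highest and the lowest of the 6 mice were wild-type replicate 3 and VDR-null replicate 3, over a range of 1.48. The genotypes overlapped between 7.49 and 8.40. Means of 7.92 ± 0.56 (SD, n = 3) and 7.87 ± 0.70 (SD, n = 3) gave a difference of -0.05 ± 0.40 (SE), with a 95% interval from -1.01 to 0.91 and an adjusted p of 0.968 in limma; the interval reaches from about a doubling lower to nearly a doubling higher. The sign of this difference followed single mice: leaving out wild-type replicate 3 gave 0.27 and leaving out wild-type replicate 1 gave -0.26. Leaving out VDR-null replicate 3, the array with the most pancreatic transcripts, gave 0.35. The difference was -0.51 ± 0.40 (SE) with the brush border covariate and 0.30 ± 0.65 (SE) with the smooth muscle covariate.

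The RefSeq promoter table for GRCm38.p6 held 7 windows for 5 of the 10 genes (Cybrd1, Tfrc, Fth1, Aco1 and Ireb2), each from 250 bases before to 50 bases after a transcript start. Those of Cybrd1 and of the upstream Tfrc start are shown because their products act on iron at the cell surface, Cybrd1 by reducing it at the lumen and Tfrc by taking up transferrin, and because both are known targets of hypoxia-inducible factors. Capitals mark ACGTG and GCGTG, the core letters that these factors bind, on either strand (read CACGT and CACGC for the opposite strand). The Cybrd1 window is chr2:71117804-71118103 and the Tfrc window chr16:32608646-32608945, both on the plus strand and written 5′ to 3′.
Cybrd1: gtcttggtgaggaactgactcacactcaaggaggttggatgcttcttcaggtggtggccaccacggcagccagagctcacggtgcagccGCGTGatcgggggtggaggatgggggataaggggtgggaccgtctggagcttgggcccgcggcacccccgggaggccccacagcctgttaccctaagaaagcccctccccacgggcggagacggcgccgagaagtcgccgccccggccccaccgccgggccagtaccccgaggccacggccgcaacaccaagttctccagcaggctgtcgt
Tfrc: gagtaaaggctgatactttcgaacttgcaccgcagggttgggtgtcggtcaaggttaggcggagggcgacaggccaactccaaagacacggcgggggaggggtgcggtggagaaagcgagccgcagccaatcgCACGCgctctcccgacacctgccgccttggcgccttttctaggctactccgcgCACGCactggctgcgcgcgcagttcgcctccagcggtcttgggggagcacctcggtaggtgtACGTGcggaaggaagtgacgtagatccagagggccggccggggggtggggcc

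The Cybrd1 window held 1 such match, GCGTG starting 161 bases before the transcript start. That of Tfrc held 3, of which ACGTG began 2 bases before the start and the GCGTG matches, on the opposite strand, began 117 and 64 bases before it; the second Tfrc window overlaps the first by 74 bases and also held 3. No match overlapped another. One of the Fth1 windows held 1 match, and the windows of Aco1 and Ireb2 held none. Among all 32851 promoter windows, 43.8% held at least 1 match, so its presence does not set these genes apart. The letters AGGTCA and GGTTCA, half-sites of the kind bound by the vitamin D receptor with its partner, were in 0 of the 7 windows and in 24.8% of all windows, on either strand. These are descriptions of letters in short windows, and sites farther away were not searched.

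On the basolateral side, ferroportin and hephaestin varied together and more widely than any other of the 10 genes. Slc40a1, the only known exporter of iron from cells, had signals of 8.75, 10.74 and 10.45 in wild-type mice against 11.03, 10.67 and 9.80 in null mice. Wild-type replicate 1 was the lowest of the 6 and VDR-null replicate 1 the highest, while VDR-null replicate 3 lay below wild-type replicates 2 and 3. The means were 9.98 ± 1.08 (SD, n = 3) and 10.50 ± 0.64 (SD, n = 3), and the difference was 0.52 ± 0.56 (SE), with a 95% interval from -0.80 to 1.84 and an adjusted p of 0.751 in limma. The direction turned without wild-type replicate 1: the difference was -0.10 without that array and -0.36 without both replicate 1 arrays. It was -0.23 ± 0.84 (SE) with the smooth muscle covariate. Leaving out VDR-null replicate 1 gave 0.25, wild-type replicate 2 gave 0.90 and VDR-null replicate 3 gave 0.87.

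Heph, the membrane-bound copper oxidase that works with ferroportin, had signals of 7.98, 9.36 and 8.89 in wild-type mice against 10.27, 9.60 and 8.94 in null mice. VDR-null replicates 1 and 2 lay above all wild-type mice, and VDR-null replicate 3 lay between wild-type replicates 3 and 2. The means of 8.74 ± 0.70 (SD, n = 3) and 9.60 ± 0.66 (SD, n = 3) differed by 0.86 ± 0.43 (SE), with a 95% interval from -0.17 to 1.88 and an adjusted p of 0.683 in limma. Of the 10 genes it had the smallest unadjusted p in limma, 0.0878. The difference stayed above 0 in each of the fits tried, but its size did not hold. It was 1.19 when VDR-null replicate 3 was left out, 0.53 when VDR-null replicate 1 was, 0.48 when wild-type replicate 1 was, 0.15 when both arrays numbered 1 were left out, and 0.09 when the brush border mean entered as covariate.

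**Figure D2:**
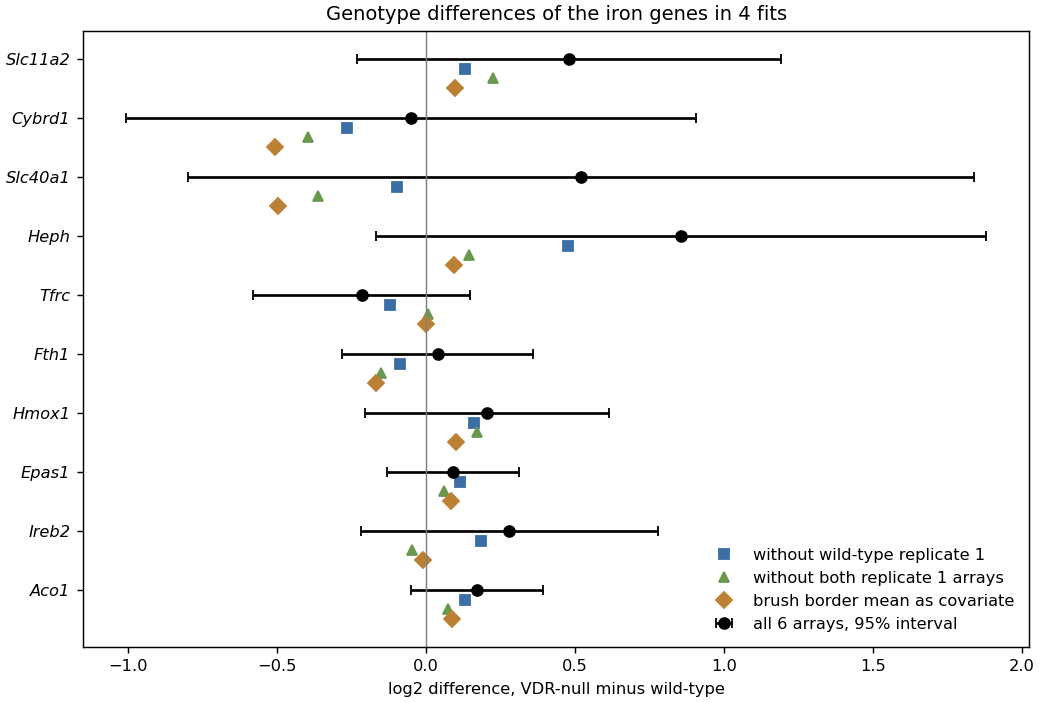
Log2 difference (VDR-null minus wild-type) of each iron gene from the fit of all 6 arrays with its 95% confidence interval (black), and from fits without wild-type replicate 1, without both replicate 1 arrays, or with the mean of the brush border list (26 genes) as a covariate. All 10 intervals include 0, and the differences of Heph, Slc11a2 and Slc40a1 shrink or turn in the other fits.

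Both export genes tracked the brush border list from array to array. In deviations from each gene's own mean, Slc40a1 lay at -1.49, 0.50 and 0.21 for wild-type mice, then at 0.79, 0.43 and -0.44 for null mice, and Heph at -1.19, 0.19 and -0.29 and at 1.09, 0.42 and -0.23. The 26 genes of the brush border list were all higher in VDR-null duodenum (median difference 0.59, 0 past the adjusted threshold). Their mean lay at -1.18, 0.13 and -0.01 and at 0.83, 0.33 and -0.11. The root mean square distance between a gene's deviations and those of the list over the 6 arrays was 0.17 log2 units for Heph, whose own spread about its mean was 0.70, and 0.26 for Slc40a1, with a spread of 0.77. For Slc11a2 the distance was 0.37 at a spread of 0.45, and for Cybrd1 0.58 at a spread of 0.52, which is no nearer to the list than to a flat line. The brush border was not the only list with this pattern. All 10 tested T cell genes were also higher in VDR-null duodenum (median 0.625, 0 past the adjusted threshold in limma and 0 with an unadjusted p under 0.05), with mean deviations of -0.89, 0.39 and -0.44 and of 0.73, 0.51 and -0.30. The mean level of the 12 T cell genes with a probe set, of which Cd3d and Cd2 were too dim to be tested, was 5.99 to 7.09 in wild-type against 6.54 to 7.39. From the T cell list Heph lay 0.22 away, Slc40a1 0.37 and Slc11a2 0.38. With the brush border covariate Slc40a1 differed by -0.50 ± 0.14 (SE, limma unadjusted p = 0.0100, adjusted p = 0.9997). It was the only one of the 10 genes with an unadjusted p under 0.05 in that fit, which 423 of all 13174 genes had. The part of villus content in the differences was not tested beyond fits with this covariate, which leave 3 residual degrees of freedom. Since the brush border list was itself higher in VDR-null duodenum, these fits cannot cleanly separate it from genotype. The part of T cells was not tested.

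**Figure D3:**
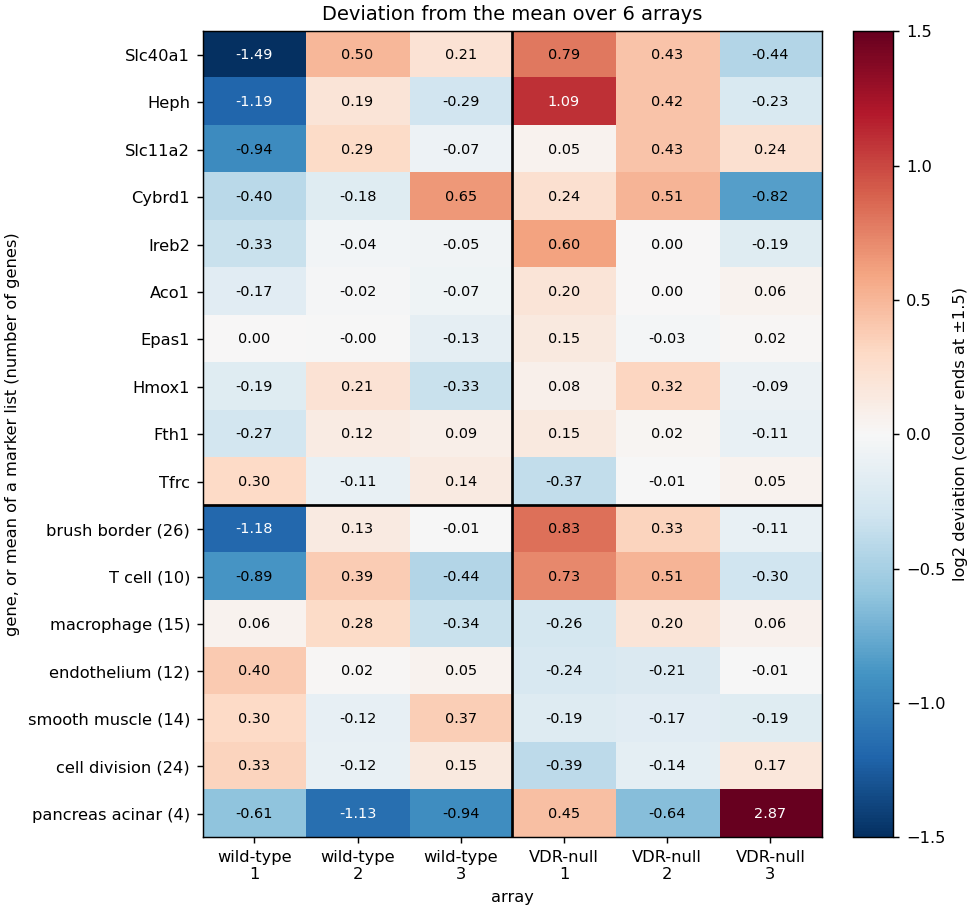
Deviation of each iron gene (above the line), and of the mean of each marker list (below it, with the number of genes), from its own mean over the 6 arrays, in log2 units; columns are arrays, wild-type left and VDR-null right. Slc40a1 and Heph share the low wild-type replicate 1 and high VDR-null replicate 1 of the brush border list, Tfrc has the opposite pattern, and Cybrd1 has neither.

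Tfrc, which takes up transferrin-bound iron and is most abundant in dividing cells, had the opposite pattern to the exporters. It had signals of 9.55, 9.15 and 9.39 in wild-type mice against 8.89, 9.25 and 9.31 in null mice. Wild-type replicate 1 was the highest and VDR-null replicate 1 the lowest of the 6 mice, and the remaining 4 lay between 9.15 and 9.39. The means were 9.36 ± 0.20 (SD, n = 3) and 9.15 ± 0.23 (SD, n = 3), and the difference was -0.22 ± 0.15 (SE), with a 95% interval from -0.58 to 0.15 and an adjusted p of 0.687 in limma. Leaving out VDR-null replicate 1 gave -0.09, wild-type replicate 1 gave -0.12, and both together gave 0.0078. Its deviations lay 0.08 log2 units from those of 24 cell division genes, against a spread of 0.21 about its own mean and a distance of 0.80 from the brush border list. They also lay nearer to the endothelial list (0.12) and the smooth muscle list (0.17) than to a flat line, so the likeness was not particular to cell division. All 24 of those genes were lower in VDR-null duodenum (median -0.25; 0 past the adjusted threshold), and their mean ranged from 8.67 to 9.12 in wild-type and 8.39 to 8.96 in VDR-null arrays. What part the content of dividing, endothelial or muscle cells has in the Tfrc values was not tested.

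Storage and haem breakdown showed small differences. Fth1, the heavy chain of ferritin, which oxidises and stores iron, had signals of 12.64, 13.03 and 13.01 in wild-type mice against 13.06, 12.94 and 12.80 in null mice. Wild-type replicate 1 was again the lowest, and the genotypes overlapped over the rest of a range of 0.42. The difference was 0.04 ± 0.13 (SE), with a 95% interval from -0.28 to 0.36 and an adjusted p of 0.921 in limma, -0.09 without wild-type replicate 1 and -0.02 without VDR-null replicate 1. Ferritin has many processed copies in the genome, and whether the probes also read those is not known. Since ferritin synthesis is set largely at translation, its transcript level does not give the amount of the protein.

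Hmox1, the inducible oxygenase that frees iron from haem, was dim. It had signals of 5.24, 5.64 and 5.10 in wild-type mice against 5.51, 5.75 and 5.33 in null mice, close to the median of all values, 5.17, with 5 of 6 arrays above it. Within each genotype replicate 2 was the highest mouse, and the genotypes overlapped. The difference of 0.20 ± 0.17 (SE, limma adjusted p = 0.709) turned to -0.17 ± 0.21 (SE) with the smooth muscle covariate. Leaving out wild-type replicate 3 gave 0.0887, VDR-null replicate 2 gave 0.095 and wild-type replicate 2 gave 0.36, and array weights gave 0.43 (unadjusted p = 0.0230, adjusted p = 0.206 in limma). Hmox1 and ferroportin are also abundant in macrophages, and the 15 macrophage genes tested had 5 higher and 10 lower (median -0.0081), with a mean level of 7.20 to 7.82 in wild-type and 7.28 to 7.73 in VDR-null arrays. The deviations of Hmox1 lay 0.19 from those of the macrophage list, 0.53 from those of the brush border list and 0.23 from a flat line.

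The sensors of iron and oxygen were the steadiest of the 10 genes, apart from Ireb2. Aco1, which is an aconitase when it holds an iron-sulfur cluster and an RNA-binding regulator when it does not, had signals of 9.62, 9.76 and 9.71 in wild-type mice against 9.98, 9.78 and 9.84 in null mice. All VDR-null mice lay above all wild-type mice, with VDR-null replicate 2 just above wild-type replicate 2. The means of 9.70 ± 0.07 (SD, n = 3) and 9.87 ± 0.10 (SD, n = 3) differed by 0.17 ± 0.09 (SE), with a 95% interval from -0.05 to 0.39 and an adjusted p of 0.683 in limma, a ratio of 1.13. The difference stayed above 0 in each fit tried, between 0.07 without both replicate 1 arrays and 0.21 without VDR-null replicate 2.

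Its relative Ireb2, which has no aconitase activity and is broken down when iron is plentiful, had signals of 8.79, 9.08 and 9.06 in wild-type mice against 9.72, 9.12 and 8.93 in null mice. VDR-null replicate 1 alone was high, and VDR-null replicates 2 and 3 lay inside or just above the wild-type range. The difference of 0.28 ± 0.21 (SE), with a 95% interval from -0.22 to 0.78 and an adjusted p of 0.690 in limma, was 0.05 without VDR-null replicate 1 and -0.05 without both replicate 1 arrays. Leaving out wild-type replicate 1 gave 0.19, and VDR-null replicate 3 gave 0.44. Iron controls this protein by degradation rather than by transcript level, so the array does not report its activity.

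Epas1, the hypoxia-inducible factor subunit that drives the duodenal response to iron shortage, varied least of the 10 genes. It had signals of 9.88, 9.88 and 9.75 in wild-type mice against 10.03, 9.85 and 9.90 in null mice. VDR-null replicates 1 and 3 lay above all wild-type mice and VDR-null replicate 2 did not. The difference was 0.09 ± 0.09 (SE), with a 95% interval from -0.13 to 0.31 and an adjusted p of 0.740 in limma. It was 0.04 without VDR-null replicate 1 and 0.05 without wild-type replicate 3. Epas1 is also a gene of blood vessels, and all 12 tested endothelial genes were lower in VDR-null duodenum (median -0.33, 0 past the adjusted threshold). Of them 3 had an unadjusted p under 0.05 in limma, against 5.23% of all genes tested. Their mean level was 7.9975 to 8.3772 in wild-type and 7.7349 to 7.9682 in VDR-null arrays, without overlap. The mean of Epas1 was higher in VDR-null duodenum. What part the content of endothelial cells has in the Epas1 values was not tested.

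The rest of the pathway was described from textbook lists, in which no gene passed the adjusted threshold. Over all genes tested 44.0% were higher in VDR-null duodenum, with a median difference of -0.03. Of 20 tested genes of uptake, storage and export, 10 were higher and 10 lower, with a median of -0.04 and none with even an unadjusted p under 0.05 in limma. Those with the smallest p were the iron and zinc importer Slc39a14 (0.45 ± 0.23, SE), the lysosomal iron channel Mcoln1 (0.36 ± 0.18), the endosomal ferrireductase Steap3 (-0.17 ± 0.09) and the mitochondrial carrier Sfxn1 (0.28 ± 0.15). Steap3 had signals of 6.42, 6.23 and 6.30 in wild-type mice against 6.13, 6.10 and 6.21 in null mice, without overlap, as in 11.1% of all genes tested. The cytosolic iron chaperones Pcbp1 and Pcbp2, which hand iron to ferritin, differed by -0.13 ± 0.12 and -0.15 ± 0.11. Hepcidin, the liver hormone that removes ferroportin from the cell surface, was dim on all 6 arrays (Hamp 2.84 to 3.04, Hamp2 2.77 to 3.16), as was the second transferrin receptor Tfr2 (3.93 to 4.34).

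Among genes of haem handling 14 of 18 were higher and 4 lower (median 0.09), with none past the adjusted threshold. The share higher over all genes tested was 44.0% (median -0.03). In limma 5.23% of all genes tested had an unadjusted p under 0.05, and of these 18 genes 1 did. That gene was Alad, the porphobilinogen synthase of haem synthesis, which had signals of 10.33, 10.17 and 10.52 in wild-type mice against 10.69, 10.70 and 11.12 in null mice. The genotypes did not overlap in Alad, as in 11.1% of all genes tested, and the difference was 0.50 ± 0.15 (SE, limma adjusted p = 0.683). The proton-coupled folate transporter Slc46a1 was first described as a haem carrier. It had signals of 8.30, 11.05 and 11.17 in wild-type mice against 12.10, 11.39 and 10.29 in null mice (difference 1.09 ± 0.82). The haem exporter Flvcr1 read 6.27, 7.42 and 7.05 and then 8.78, 7.95 and 7.10 (1.03 ± 0.46). In both, wild-type replicate 1 was the lowest and VDR-null replicate 1 the highest array. The same held for Slc40a1, Heph and the means of the brush border and T cell lists. VDR-null replicate 3 lay below wild-type replicates 2 and 3 in Slc46a1, as in Slc40a1. In Flvcr1 it lay between wild-type replicates 3 and 2, as in Heph. The lysosomal haem carrier Slc48a1, by contrast, was lower on every VDR-null array (8.90, 8.89 and 8.79 against 8.36, 8.72 and 8.70; difference -0.27 ± 0.12). The mitochondrial haem-linked transporter Abcb10 differed by 0.40 ± 0.20.

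The genes of mitochondrial iron and iron-sulfur clusters had small differences. Of 18 tested, 12 were higher and 6 lower (median 0.04; 0 with an unadjusted p under 0.05 in limma), and the 4 with the smallest p were Cisd2 (-0.18 ± 0.09, SE), Cisd3 (0.16 ± 0.08), the chaperone Hspa9 (-0.17 ± 0.09) and Cisd1 (0.18 ± 0.15). In the list of iron and oxygen sensing 9 of 13 were higher (median 0.04). For both lists the share higher over all genes tested was 44.0% (median -0.03). An unadjusted p under 0.05 in limma was met by 1 of the 13 sensing genes, Hif1an, and by 5.23% of all genes tested. Hif1an, the asparagine hydroxylase that restrains hypoxia-inducible factors, had signals of 7.61, 7.57 and 7.55 in wild-type mice against 7.73, 7.76 and 7.81 in null mice. The genotypes did not overlap in it (0.19 ± 0.08), as in 11.1% of all genes tested. Hif1a (0.17 ± 0.10), the ubiquitin ligase subunit Fbxl5 that removes Ireb2 (0.28 ± 0.23) and the prolyl hydroxylase Egln2 (-0.08 ± 0.08) overlapped between genotypes. Fbxl5 was high on VDR-null replicate 1 alone (8.32, with the other arrays between 7.33 and 7.58), the array on which Ireb2 was also high.

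Known targets of hypoxia-inducible factors had 9 of 12 tested genes higher (median 0.10), against 44.0% of all genes tested (median -0.03). An unadjusted p under 0.05 in limma was met by 1 of these 12, Pfkfb3, and by 5.23% of all genes tested. The glycolytic regulator Pfkfb3 had signals of 6.37, 6.740 and 6.73 in wild-type mice against 7.42, 7.17 and 6.740 in null mice, where wild-type replicate 2 and VDR-null replicate 3 nearly touched (0.49 ± 0.19, SE). Car9 (0.29 ± 0.18), Ccng2 (0.69 ± 0.44) and Vegfa (0.37 ± 0.24) overlapped. Vegfa reached 9.20 on VDR-null replicate 1 and lay between 8.20 and 8.58 elsewhere. The hypoxia list had its lowest mean deviation, -0.24, in wild-type mouse 1 and its highest, 0.26, in VDR-null mouse 1, the arrays at the ends of the brush border list.

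**Figure D4:**
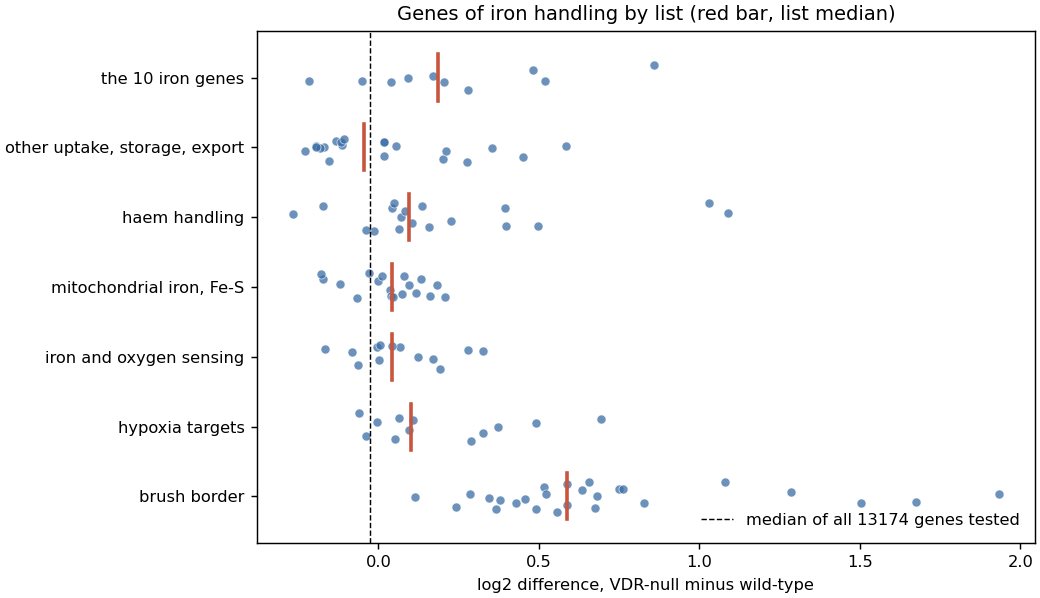
Log2 difference (VDR-null minus wild-type) of each tested gene in the lists of iron handling and, for comparison, of the brush border; each point is 1 gene, the red bar is the list median and the dashed line the median of all genes tested. List medians run from -0.04 for other uptake, storage and export genes to 0.19 for the 10 iron genes, and the brush border list lies at 0.59.

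The genes whose profiles lay nearest to those of the 10, by the same root mean square distance over the 6 arrays, were found for the 8 genes that varied more than the median gene. For Heph they were Sema6a, Themis3 and Cndp1 (distances 0.07, 0.07 and 0.08 log2 units). Those of Slc40a1 were Sprr2b, Apob, which packs lipid into chylomicrons, and the basolateral steroid and bile acid carrier subunit Slc51a (0.11, 0.12 and 0.13). Slc11a2 had Tex12, Ms4a18 and the secreted lectin Reg1 (0.10, 0.15 and 0.16). Nearest to Tfrc were Asph, Far2 and Mfge8 (0.02 each), and nearest to Ireb2 were Arhgef16, Sap30l and Gclm (0.03, 0.04 and 0.05). Cybrd1 had no close neighbour: the nearest, the peroxisomal enzyme Hsd17b4, lay 0.27 away, and Rpl3 and Ccdc114 both 0.32. For Fth1 the nearest were Mroh1, Cyhr1 and Flii (0.03 to 0.04), and for Hmox1 Trappc2l, Mob3c and Trmt1l (0.05 to 0.06). Among the 10 genes themselves the closest pair was Epas1 and Aco1 (0.08), both nearly flat, and the closest pair of the widely varying genes was Slc40a1 and Heph (0.31); the most distant was Slc40a1 and Tfrc (0.94). With 6 arrays and 13174 candidates, small distances arise readily, and these values are descriptions.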

How the data were processed

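RNA from the duodenum was labelled with a whole-transcript kit and hybridised to Affymetrix Mouse Gene 2.0 ST arrays, per the labels. The authors deposited log2 signals; the submitters' processing notes name RMA and Affymetrix Expression Console without versions, and these names do not show whether all 6 arrays went through RMA as 1 set. RMA evens out whole-array intensity, so only changes relative to the other transcripts of an array are seen. The array medians lay between 5.15 and 5.19, and the number of arrays limits the precision.

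Of 41345 probe sets 23521 had 1 gene symbol, 1814 several and 16010 none; the brightest probe set by 6-array mean stood for each of 22180 genes, and the 13174 genes with at least 3 arrays above the median of all values, 5.17, were tested. The 10 iron genes all passed, Hmox1 with 5 of 6 arrays above that median. Differences (VDR-null minus wild-type) come from limma 3.58.1 in R 4.3.3 (two-sided lmFit and eBayes on genotype alone), and p-values were adjusted by Benjamini-Hochberg across the 13174 genes, with calls made under 0.05. The fit was run on simulated arrays with independent noise in each gene, which lack the variation that genes share on the real arrays. That run does not check the error rates of the p-values here. The genes and lists were chosen with earlier results of these data known, and lists are described by counts and medians without a test. Named were the 10 genes, Vdr, up to 4 genes with the smallest p of each pathway list, the brightest or dim markers, and the 3 nearest profiles of genes varying more than the median gene. Lct, Pcbp1, Pcbp2 and Slc46a1 were named after their values were seen. Alternatives were other filters, normalizations, priors and weights, the replicate number as a block, arrays left out, marker covariates and other probe set rules. Promoter windows are RefSeq's, build GRCm38.p6.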

Additional observations from a re-analysis of the deposited data

How the results depend on the processing

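No alternative brought any of the 10 iron genes, or any other gene, past an adjusted p of 0.05 in limma. Unadjusted p under 0.05 was met by 689 genes in the fit of all arrays and by 135 (smooth muscle covariate) to 2718 (array weights) in the others; of the 10 iron genes, 0 met it with all arrays and at most 3 elsewhere (array weights). The number of the 10 genes that were higher ranged from 5 (brush border covariate) to 9, and leaving out single arrays gave 6 to 9 and medians of 0.08 to 0.33. The median difference was 0.19, and 0.11 with array weights, 0.04 and 0.03 with the brush border or smooth muscle covariate, and 0.03 without both replicate 1 arrays. Requiring all 6 arrays above the median left out Hmox1. A second quantile normalization, median centring and cyclic loess turned no gene (medians 0.18 to 0.22).

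Signs turned as follows; the cause was not tested. Array weights gave 0.0375 for Cybrd1 and -0.0139 for Fth1. Leaving out single arrays gave -0.32 to 0.35 for Cybrd1, -0.10 to 0.90 for Slc40a1 and -0.0862 to 0.11 for Fth1. Without both replicate 1 arrays Slc40a1 was -0.36, Tfrc 0.0078, Fth1 -0.15 and Ireb2 -0.0453. With the brush border covariate, itself higher in VDR-null duodenum, Slc40a1 was -0.50, Fth1 -0.17 and Ireb2 -0.0111. With the smooth muscle covariate, itself separated by genotype, Slc11a2 was -0.0562, Cybrd1 0.30, Slc40a1 -0.23, Tfrc 0.0318, Fth1 -0.10 and Hmox1 -0.17. Without wild-type replicate 1 and VDR-null replicate 3, chosen after seeing the data, Cybrd1 was 0.14 and Fth1 -0.0205, and 8 of 10 genes were higher with a median of 0.14. Heph, Aco1 and Epas1 stayed above 0 in all 22 alternatives.

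With the replicate number as a block the 10 genes kept a median of 0.19 and 338 genes had an unadjusted p under 0.05. Same-numbered arrays deviated from their genotype means with correlations of -0.62, 0.19 and -0.26 across 13174 genes. These values do not show that the numbers pair the mice, and whether same-numbered mice share a litter or batch was not tested.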
